A study of Mus musculus with 18 samples.

Results

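Genes for replacement and linker histones were followed in mouse embryonic stem cells (ESCs) that depended on a mutant or wild-type HDAC1. The genes were chosen by symbol, and each of the 10 had a row among the 53672 genes counted: the linker histone genes H1f0 and H1fx, the H2A.Z genes H2afz and H2afv, the H2A.X gene H2afx, the H2A.J gene H2afj, the macroH2A genes H2afy and H2afy2, and the H3.3 genes H3f3a and H3f3b. The rule of choice used no measured value, though it was made with earlier results of these data known. All 10 passed the filter on low counts, which left 18791 genes. After OHT (4-hydroxytamoxifen), H3f3b rose and H2afy2 fell in HDAC1-Y48E cells under each of 3 scalings of the libraries. H2afy and H3f3a fell in both mutant lines with the TMM scaling used throughout, though not past the test when scaled to library totals only. No member passed the test (adjusted p under 0.01) in HDAC1-WT cells, where only 0.0585% of all tested genes did. The share of all tested genes that passed was 14.3% in HDAC1-E63R and 30.9% in HDAC1-Y48E cells. Scaled with size factors, H3f3a passed in neither mutant and H2afy in HDAC1-E63R cells alone. In HDAC1-Y48E cells both calls were lost without any 1 of the line's 6 libraries. With TMM scaling and all libraries, the OHT effect on H2afy or H3f3a did not differ past the test from that in HDAC1-WT cells. The call of H3f3b with OHT in HDAC1-Y48E cells was lost without any 1 of 3 of the line's libraries, and that of H2afy2 was kept with each left out. Between treated HDAC1-Y48E and treated HDAC1-WT cells, H2afy2 passed and H3f3b did not with all libraries.

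The cells were E14TG2a ESCs in which both copies of Hdac1 and Hdac2 can be deleted (Hdac1/2 lox/lox), and OHT induces that deletion. Each of 3 lines stably carried a Flag-tagged HDAC1 transgene, inserted with the piggyBac transposon, coding for the wild-type enzyme (HDAC1-WT) or for one of 2 mutants of its surface (HDAC1-E63R and HDAC1-Y48E). Each line was sequenced untreated and OHT treated, with 3 libraries in each of 6 groups, to ask how each mutant changed gene expression relative to HDAC1-WT. The labels give 1 μM OHT and 5 days in culture for the treated cells and 5 days for the untreated cells, while the methods give a shorter exposure to OHT within that time. All 6 groups carry the lox alleles and a transgene, so the untreated cells hold the endogenous genes and the transgene together. Each mutant is represented by 1 line, and the sources used here do not say whether a line is 1 clone. The study calls the libraries of a group biological replicates, and no source used here says whether they were separate cultures, so the p-values measure the spread between these libraries.

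Nucleosomes are built mostly from histones made in S phase from clustered genes, and the variants studied here come from separate genes that are, for the most part, read outside S phase too and give polyadenylated transcripts. H3.3 replaces H3 at active genes, enhancers and, through a separate pathway, at telomeres and repeats, H2A.Z marks promoters and enhancers, H2A.X is phosphorylated around DNA breaks, and macroH2A carries a large extra domain and is associated with silent chromatin and resistance to reprogramming. Linker histones bind outside the nucleosome core and compact the fibre, and H1f0 is a classical gene of differentiated or resting cells that rises with inhibitors of histone deacetylases.

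Each library held 9019615 to 11454638 counts assigned to genes, and levels are given as CPM, a gene's counts relative to the size of its library, scaled with TMM factors. Replicate 3 of the untreated HDAC1-E63R group stood apart from its group: 23.2% of genes differed over 2-fold from its group mates, against 6.2% to 12.6% for the other 17 libraries. Its level of H1fx was 2.21 times the mean of the other 2 libraries of its group, that of H2afj 2.11 times, that of H2afv 2.104 times and that of H3f3a 1.73 times, and that of H2afy2 0.897 times. The members' changes in comparisons that use it are given with and without it. Without it the SEs of the members' changes were smaller, except those of H2afy2 in the 2 direct comparisons with the untreated HDAC1-E63R group, and a larger share of all genes passed in each of the 10 comparisons. The ranges of Hdac1 and Hdac2, unlike the other levels, are CPM of library totals without TMM factors. Hdac1 spanned 194 to 206 CPM without OHT and 169 to 179 CPM after it in HDAC1-WT cells, 89.6 to 106 and 119 to 138 CPM in HDAC1-E63R cells, and 93.3 to 99.8 and 122 to 125 CPM in HDAC1-Y48E cells. Hdac2, which OHT also deletes and no transgene supplies, spanned 163 to 204 CPM before and 112 to 133 CPM after OHT in HDAC1-WT cells, 149 to 171 and 158 to 166 CPM in HDAC1-E63R cells, and 142 to 148 and 154 to 168 CPM in HDAC1-Y48E cells. On that unscaled basis, only in HDAC1-WT cells did every treated library lie below every untreated one. In the fit, which uses TMM factors, the log2 fold change of Hdac2 was -0.66 ± 0.11 (SE, adjusted p = 0.0125) in HDAC1-WT, -0.21 ± 0.11 (SE, adjusted p = 0.194) in HDAC1-E63R and -0.069 ± 0.11 (SE, adjusted p = 0.649) in HDAC1-Y48E cells, so that neither Hdac2 nor Hdac1 passed in a line. Hdac2 passed in HDAC1-WT cells once the outlying library was left out, at -0.66 ± 0.077 (SE, adjusted p = 1.45e-07). Its OHT effect differed from HDAC1-WT by 0.59 ± 0.11 (SE, adjusted p = 2.68e-04) in HDAC1-E63R and by 0.58 ± 0.11 (SE, adjusted p = 3.11e-05) in HDAC1-Y48E cells in that fit. With all libraries those differences were 0.45 ± 0.16 (SE, adjusted p = 0.102) and 0.59 ± 0.16 (SE, adjusted p = 0.0105), both short of the limit. In the fit without that library the level of Hdac2 thus moved differently in HDAC1-WT cells than in the mutants, and the part of this in the members' changes was not tested. Whole-gene counts do not separate a transgene from the endogenous gene or a deleted transcript from a whole one.

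A transcript was said to pass where edgeR's quasi-likelihood test gave a Benjamini-Hochberg adjusted p under 0.01 over all tested genes. The term DEG is kept for those that also changed over 2-fold. No member was a DEG with OHT, where 0.0532%, 5.91% and 16.6% of all tested genes were in HDAC1-WT, HDAC1-E63R and HDAC1-Y48E cells.

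The H2A.Z pair is the only one of the 3 paired sets whose promoter windows hold none of their own annotated exon bases, and both are shown for that reason. Each run is the 250 bases before the transcript start (RefSeq, GRCm38.p6), written 5′ to 3′ on the gene's strand in lower case, with the letters CCAAT or their reverse complement ATTGG in capitals.
H2afz, chr3:137864237-137864486, plus strand: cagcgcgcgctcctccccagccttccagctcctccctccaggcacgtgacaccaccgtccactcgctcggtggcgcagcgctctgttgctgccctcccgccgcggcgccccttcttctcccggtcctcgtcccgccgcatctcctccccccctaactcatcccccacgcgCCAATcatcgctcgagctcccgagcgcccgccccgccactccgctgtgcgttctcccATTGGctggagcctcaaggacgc
H2afv, chr11:6444444-6444693, minus strand: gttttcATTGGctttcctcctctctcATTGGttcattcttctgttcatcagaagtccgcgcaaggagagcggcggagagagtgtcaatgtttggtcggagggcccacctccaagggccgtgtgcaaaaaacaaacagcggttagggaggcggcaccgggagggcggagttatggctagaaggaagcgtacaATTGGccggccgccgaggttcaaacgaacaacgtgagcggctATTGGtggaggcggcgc
The H2afz window holds 2 matches and the H2afv window 4. Of the 9 members with a promoter in that set, 5 hold CCAAT on either strand (H2afz, H2afv, H2afj, H3f3a and H3f3b), against 33.8% of 32851 promoters of the same length, and H2afx is the member without one there. H3f3b holds 4 matches and H3f3a 1, H2afj holds 3, and H1f0, H1fx, H2afy and H2afy2 hold none. GGGCGG, searched on both strands, was found in 6 of the 9, with 4 matches in H3f3a and none in H3f3b, against 32.7% of all promoters. TATAAA was found in H3f3b alone, against 12.4% of all promoters. These are matches of letters only.

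The members covered a wide range of levels in untreated HDAC1-WT cells. Per kilobase of exon (GENCODE M21), H2afx was highest at 420.0 ± 2.64 CPM per kb (SD, n = 3), followed by H3f3b at 339 ± 19.3, H2afz at 179 ± 12.3, H3f3a at 132 ± 4.06 and H2afv at 83.8 ± 9.54. H2afj at 63.6 ± 7.31, H2afy at 54.8 ± 4.30, H1fx at 41.1 ± 9.76 and H1f0 at 40.0 ± 2.48 came next, and each of these overlapped its neighbour in that order. H2afy2 was lowest at 26.9 ± 0.756 CPM per kb.

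**Figure D1:**
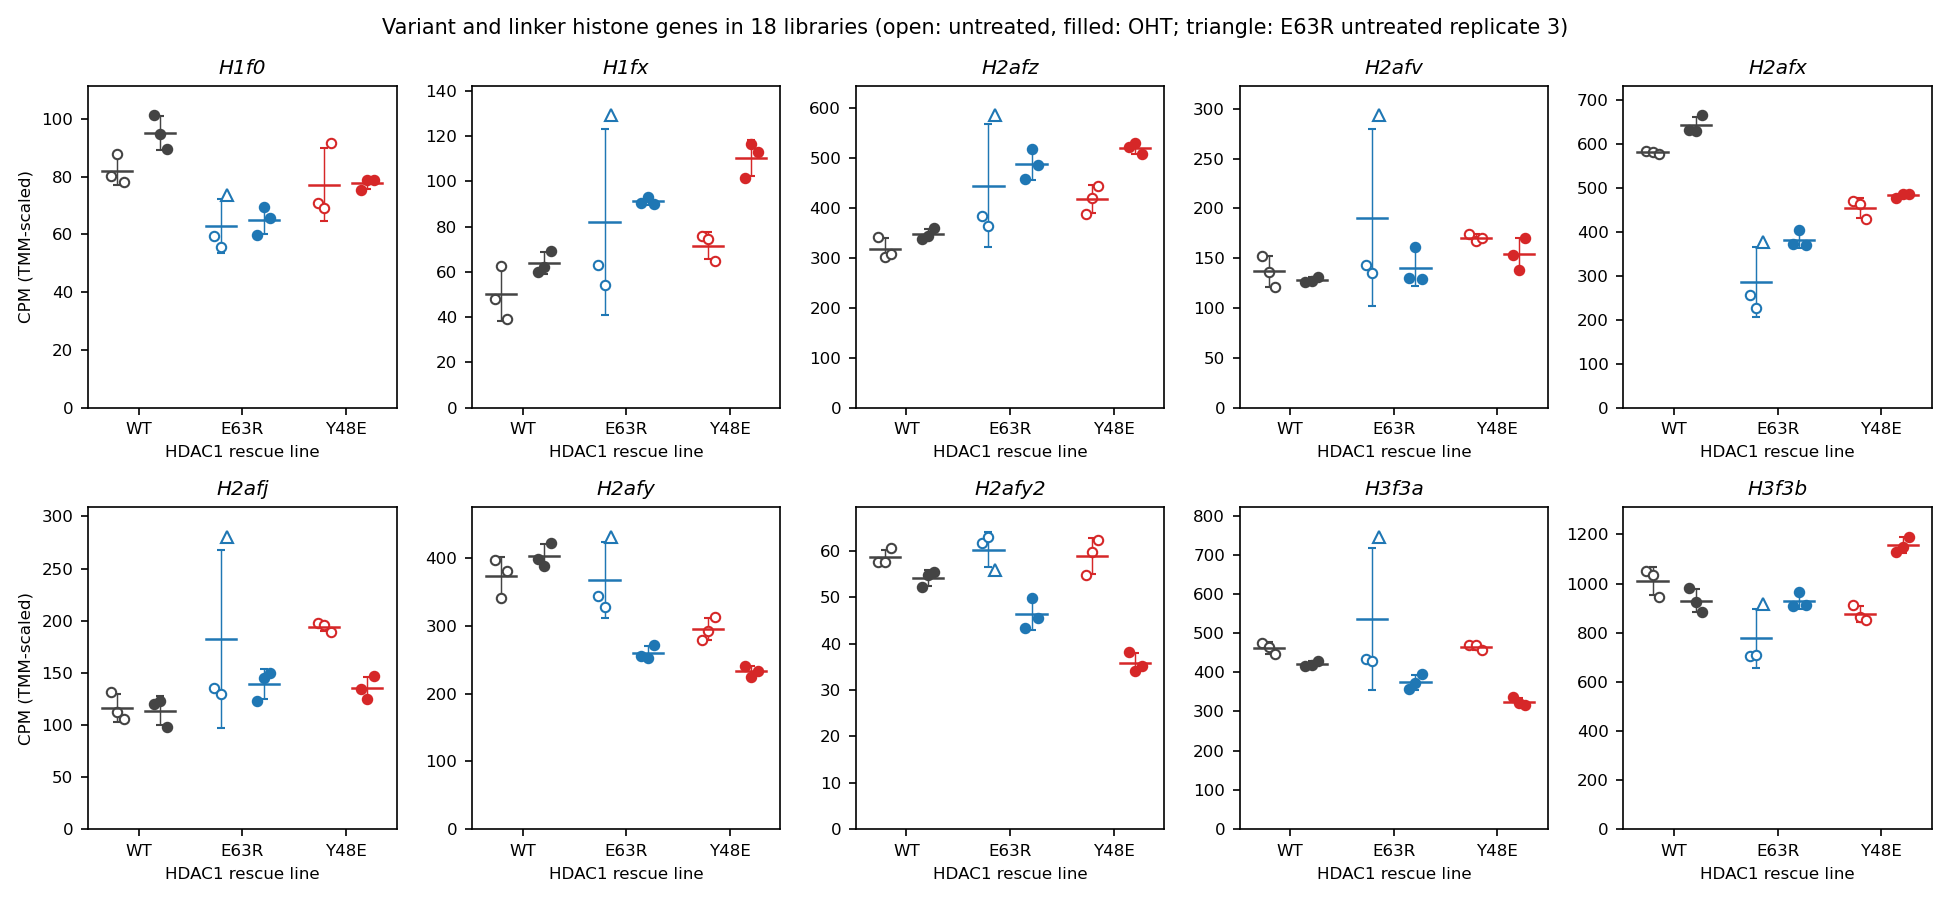
Levels of the 10 genes in 18 libraries, in CPM on a linear axis from 0, by rescue line (WT, E63R and Y48E), with open symbols for untreated and filled symbols for OHT-treated cells. Horizontal bars are group means and vertical bars SDs over 3 libraries, and the triangle is replicate 3 of untreated HDAC1-E63R, which is the highest symbol of its group in every panel except H2afy2. H3f3b lies higher after OHT in the HDAC1-Y48E line, and H2afy2 and H3f3a lie lower there, without overlap.

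The linker histone genes showed no change past the test with OHT in any line with TMM scaling, the filter on low counts and all libraries. H1f0 (H1.0, chr15:79028450-79030504 on mm10) gave 80.2, 87.9 and 78.3 CPM in untreated HDAC1-WT cells and 101, 94.8 and 89.6 CPM after OHT. In HDAC1-E63R cells it gave 59.5, 55.7 and 73.5 CPM without OHT and 59.8, 69.4 and 65.7 CPM with it, and in HDAC1-Y48E cells 70.8, 69.2 and 91.9 and 75.5, 78.7 and 79.0 CPM. Only the HDAC1-WT groups did not overlap, and the mutant groups did. The log2 fold change was 0.21 ± 0.12 (SE, adjusted p = 0.614), 0.046 ± 0.12 (SE, adjusted p = 0.826) and 0.0076 ± 0.12 (SE, adjusted p = 0.968) in HDAC1-WT, HDAC1-E63R and HDAC1-Y48E cells, with a 95% interval in HDAC1-Y48E cells of -0.25 to 0.26, so that a change over 2-fold lay outside it. In HDAC1-E63R cells the change was 0.17 ± 0.11 (SE, adjusted p = 0.265) without the outlying library.

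H1fx (H1.10, chr6:87980421-87981637), a linker histone with a divergent sequence, gave 48.1, 62.8 and 39.3 CPM in untreated HDAC1-WT cells and 60.1, 62.3 and 69.3 CPM after OHT. HDAC1-E63R cells gave 62.9, 54.0 and 129 CPM and then 90.6, 92.9 and 90.1 CPM, and HDAC1-Y48E cells 75.8, 74.4 and 64.8 CPM and then 101, 117 and 113 CPM. In HDAC1-Y48E cells every treated library lay above every untreated one, and in HDAC1-E63R cells untreated replicate 3 lay above all others. Its log2 fold change was 0.35 ± 0.22 (SE, adjusted p = 0.649) in HDAC1-WT, 0.15 ± 0.21 (SE, adjusted p = 0.644) in HDAC1-E63R and 0.62 ± 0.21 (SE, adjusted p = 0.0220) in HDAC1-Y48E cells. Without that library it was 0.64 ± 0.12 (SE, adjusted p = 5.51e-05) in HDAC1-E63R and 0.62 ± 0.11 (SE, adjusted p = 3.10e-06) in HDAC1-Y48E cells, both past the test, and neither differed from HDAC1-WT by the test of the difference (log2 0.29 ± 0.16 (SE, adjusted p = 0.288) and 0.27 ± 0.15 (SE, adjusted p = 0.180)).

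Neither H2A.Z gene passed the test with OHT with TMM scaling, the filter on low counts and all libraries. H2afz (H2A.Z.1, chr3:137864487-137866922) rose in both mutants once the outlying library was left out, while H2afv (H2A.Z.2, chr11:6427229-6444443) did not pass then. Scaled to library totals only, with all libraries, H2afz passed in HDAC1-Y48E cells at 0.52 (adjusted p = 2.62e-04). Without the filter on low counts H2afv passed in HDAC1-E63R cells, where it was lower. H2afz gave 343, 302 and 308 CPM in untreated and 338, 343 and 359 CPM in treated HDAC1-WT cells, 384, 364 and 586 and 457, 519 and 486 CPM in HDAC1-E63R cells, and 389, 419.9 and 444 and 523, 531 and 508 CPM in HDAC1-Y48E cells. Treated HDAC1-Y48E libraries lay above all untreated ones. The log2 fold change of H2afz was 0.13 ± 0.13 (SE, adjusted p = 0.837), 0.13 ± 0.13 (SE, adjusted p = 0.490) and 0.32 ± 0.13 (SE, adjusted p = 0.0497) in the 3 lines, in the order HDAC1-WT, HDAC1-E63R and HDAC1-Y48E. Without the outlying library it was 0.38 ± 0.068 (SE, adjusted p = 2.28e-05) in HDAC1-E63R and 0.31 ± 0.060 (SE, adjusted p = 2.34e-05) in HDAC1-Y48E cells. In that fit it was 0.13 ± 0.061 (SE, adjusted p = 0.263) in HDAC1-WT cells. The difference from HDAC1-WT was then 0.25 ± 0.091 (SE, adjusted p = 0.0647) for HDAC1-E63R and 0.185 ± 0.086 (SE, adjusted p = 0.0929) for HDAC1-Y48E, neither past the test. H2afv gave 153, 136 and 121 CPM and 126, 127 and 132 CPM in HDAC1-WT cells, 144, 135 and 293 and 130.2, 161 and 129 CPM in HDAC1-E63R cells, and 174, 167 and 169.9 and 153, 138 and 170.5 CPM in HDAC1-Y48E cells. Its groups overlapped in each line, and its log2 fold change was -0.093 ± 0.19 (SE, adjusted p = 0.944), -0.45 ± 0.19 (SE, adjusted p = 0.0932) and -0.15 ± 0.19 (SE, adjusted p = 0.562), with 0.0027 ± 0.093 (SE, adjusted p = 0.989) in HDAC1-E63R cells without the outlying library.

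The balance within the pair can be read without any scaling between libraries. As a share of the pair's counts per kb, H2afv made up 31.9% ± 1.60 (SD, n = 3) without OHT and 28.7% ± 0.209 (SD, n = 3) after OHT in HDAC1-WT cells, 31.0% ± 3.71 (SD, n = 3) without OHT and 23.8% ± 1.404 (SD, n = 3) after OHT in HDAC1-E63R cells, and 30.8% ± 1.76 (SD, n = 3) without OHT and 24.3% ± 2.33 (SD, n = 3) after OHT in HDAC1-Y48E cells. It was lower in every treated library than in every untreated library of the same line, in all 3 lines, HDAC1-WT included. An exact two-sided permutation test gave 0.1 for each, the smallest p that 3 against 3 libraries can give (0.129 after Benjamini-Hochberg adjustment over 9 such tests). In HDAC1-E63R cells the mean difference was -7.24 percentage points, and -5.10 without the outlying library. H2afz has 4 processed copies in the annotation, 1 of them identical over 387 bases, and their counts came to 10.2% of those of H2afz, so its level carries an uncertainty of that order. Adding the copies to their parents changed no count of passing members.

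H2afx (chr9:44334694-44336077), the substrate of the DNA damage kinases ATM, ATR and DNA-PK, was the member furthest from HDAC1-WT in untreated HDAC1-E63R cells. In treated cells H2afy (-0.79) and H1fx (0.79) in HDAC1-Y48E lay further from HDAC1-WT than H2afx did in HDAC1-E63R (-0.75). H2afx gave 584, 583 and 577 CPM in untreated and 633, 629.9 and 666 CPM in treated HDAC1-WT cells, 256, 226 and 377 and 373, 404 and 372 CPM in HDAC1-E63R cells, and 471, 464 and 430.0 and 477, 486 and 488 CPM in HDAC1-Y48E cells. The HDAC1-WT line held the highest 6 libraries, and the lowest 2 were untreated HDAC1-E63R libraries. With OHT the log2 fold change was 0.15 ± 0.12 (SE, adjusted p = 0.792) in HDAC1-WT, 0.42 ± 0.13 (SE, adjusted p = 0.0174) in HDAC1-E63R and 0.089 ± 0.12 (SE, adjusted p = 0.592) in HDAC1-Y48E cells. Without the outlying library the rise in HDAC1-E63R cells was 0.66 ± 0.065 (SE, adjusted p = 4.68e-11) and differed from HDAC1-WT by 0.52 ± 0.085 (SE, adjusted p = 1.97e-05) and from HDAC1-Y48E, taken as HDAC1-Y48E minus HDAC1-E63R, by -0.58 ± 0.086 (SE, adjusted p = 2.68e-06).

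A small annotated RNA, Gm44335, lies wholly inside the H2afx exon on the opposite strand, over 141 bases, and was given 35828 counts over the 18 libraries. It was looked at after its values were seen. Its log2 fold change with OHT was 0.011 ± 0.099 (SE, adjusted p = 0.998) in HDAC1-WT, 0.70 ± 0.10 (SE, adjusted p = 2.93e-05) in HDAC1-E63R and 0.083 ± 0.099 (SE, adjusted p = 0.524) in HDAC1-Y48E cells. In HDAC1-E63R cells it was 0.69 ± 0.087 (SE, adjusted p = 2.12e-08) without the outlying library. The use of strand in the counting is not given in the sources used here, and whether these counts are reads of H2afx was not tested.

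H2afj (chr6:136808244-136810074), the gene of H2A.J, a variant linked to senescence and secretory cells, gave 131, 112 and 106 CPM in untreated and 120.4, 123 and 97.5 CPM in treated HDAC1-WT cells. The values were 136, 129.9 and 281 and 123, 145 and 149 CPM in HDAC1-E63R cells, and 198, 196 and 189 and 134, 125 and 147 CPM in HDAC1-Y48E cells. Treated HDAC1-Y48E libraries lay below all untreated ones, and the other lines' groups overlapped. For H2afj the log2 fold change was -0.037 ± 0.19 (SE, adjusted p = 0.984) in HDAC1-WT, -0.39 ± 0.19 (SE, adjusted p = 0.152) in HDAC1-E63R and -0.52 ± 0.19 (SE, adjusted p = 0.0330) in HDAC1-Y48E cells. Without the outlying library it was 0.063 ± 0.095 (SE, adjusted p = 0.679) in HDAC1-E63R cells and -0.53 ± 0.084 (SE, adjusted p = 9.27e-07) in HDAC1-Y48E cells, and the difference between the mutants, HDAC1-Y48E minus HDAC1-E63R, was -0.59 ± 0.13 (SE, adjusted p = 8.42e-04).

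H2afy, the more abundant of the macroH2A genes, fell with OHT in both mutant lines, and H2afy2 fell in HDAC1-Y48E cells. H2afy (macroH2A1, chr13:56073619-56136361) gave 398, 341 and 381 CPM in untreated and 399, 388 and 422 CPM in treated HDAC1-WT cells, 343, 328 and 431 and 256, 253 and 271 CPM in HDAC1-E63R cells, and 279.6, 293 and 313 and 240.1, 225 and 233 CPM in HDAC1-Y48E cells. In both mutants no treated library reached the lowest untreated one, and the HDAC1-WT groups overlapped. The log2 fold change was 0.11 ± 0.10 (SE, adjusted p = 0.807), -0.50 ± 0.10 (SE, adjusted p = 0.00103) and -0.34 ± 0.10 (SE, adjusted p = 0.00929) in HDAC1-WT, HDAC1-E63R and HDAC1-Y48E cells, so that H2afy passed the test in both mutants. In HDAC1-E63R cells it was -0.37 ± 0.069 (SE, adjusted p = 4.49e-05) without the outlying library. Scaled to library totals only, the falls were -0.28 in HDAC1-E63R and -0.14 in HDAC1-Y48E cells and neither passed. In HDAC1-Y48E cells leaving out any 1 of its 6 libraries, or the filter on low counts, took the call of H2afy away, with adjusted p for the libraries between 0.0133 and 0.0462. The difference from HDAC1-WT was -0.61 ± 0.14 (SE, adjusted p = 0.0123) for HDAC1-E63R and -0.46 ± 0.14 (SE, adjusted p = 0.0259) for HDAC1-Y48E, both short of the limit, and -0.48 ± 0.093 (SE, adjusted p = 2.04e-04) and -0.46 ± 0.088 (SE, adjusted p = 4.86e-05) without the outlying library, both past it.

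H2afy2 (macroH2A2, chr10:61738665-61784147) gave 57.7, 57.6 and 60.5 CPM in untreated and 52.1, 54.9 and 55.4 CPM in treated HDAC1-WT cells. It gave 61.7, 63.03 and 55.9 and 43.4, 49.9 and 45.6 CPM in HDAC1-E63R cells, and 54.8, 59.7 and 62.2 and 38.1, 34.0 and 35.1 CPM in HDAC1-Y48E cells. In each line the treated libraries lay below the untreated ones, with the widest gap in HDAC1-Y48E cells. OHT gave a log2 fold change of -0.11 ± 0.11 (SE, adjusted p = 0.810) in HDAC1-WT, -0.38 ± 0.11 (SE, adjusted p = 0.0110) in HDAC1-E63R and -0.72 ± 0.11 (SE, adjusted p = 1.19e-05) in HDAC1-Y48E cells. The change in HDAC1-Y48E cells passed under each of the 8 other settings and with each library left out, and it differed from that in HDAC1-WT cells by -0.61 ± 0.15 (SE, adjusted p = 0.00530). That difference lost its call, at adjusted p between 0.0135 and 0.0187, without any 1 of 8 of the 12 libraries it uses, and with library totals only it was -0.45 and did not pass. In HDAC1-E63R cells it was -0.43 ± 0.11 (SE, adjusted p = 0.00216) without the outlying library. Within the pair, H2afy2 held 33.0% ± 1.71 (SD, n = 3) without OHT and 29.6% ± 0.931 (SD, n = 3) after OHT in HDAC1-WT cells, 34.1% ± 4.64 (SD, n = 3) without OHT and 35.8% ± 2.11 (SD, n = 3) after OHT in HDAC1-E63R cells and 38.4% ± 0.463 (SD, n = 3) without OHT and 32.5% ± 0.657 (SD, n = 3) after OHT in HDAC1-Y48E cells. The groups did not overlap in HDAC1-WT and HDAC1-Y48E cells (exact permutation p = 0.1 each) and overlapped in HDAC1-E63R cells (exact permutation p = 0.8), where the mean difference turned from 1.64 to -1.002 percentage points without the outlying library.

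The H3.3 genes moved in opposite directions in HDAC1-Y48E cells, where H3f3a fell and H3f3b rose, and H3f3a fell in HDAC1-E63R cells too. H3f3a (chr1:180800832-180813943) gave 475, 464 and 447 CPM in untreated and 416, 418 and 429 CPM in treated HDAC1-WT cells, 434, 429 and 746 and 357, 372 and 395 CPM in HDAC1-E63R cells, and 469.6, 471 and 456 and 337, 321 and 318 CPM in HDAC1-Y48E cells. Treated libraries lay below untreated ones in all 3 lines. The log2 fold change was -0.13 ± 0.14 (SE, adjusted p = 0.844) in HDAC1-WT, -0.52 ± 0.14 (SE, adjusted p = 0.00953) in HDAC1-E63R and -0.52 ± 0.14 (SE, adjusted p = 0.00501) in HDAC1-Y48E cells. The fall in HDAC1-E63R cells was -0.21 ± 0.061 (SE, adjusted p = 0.00918) without the outlying library, which alone held 746 CPM, and the call was lost without any 1 of the 3 treated libraries (adjusted p between 0.0213 and 0.0446). Scaled to library totals only, the falls were -0.28 in HDAC1-E63R and -0.31 in HDAC1-Y48E cells and neither passed. In HDAC1-Y48E cells leaving out any 1 of its 6 libraries raised the adjusted p to between 0.0124 and 0.0212. The difference from HDAC1-WT was -0.38 ± 0.20 (SE, adjusted p = 0.286) for HDAC1-E63R and -0.38 ± 0.20 (SE, adjusted p = 0.180) for HDAC1-Y48E, neither past the test. Without the outlying library it was -0.073 ± 0.083 (SE, adjusted p = 0.670) for HDAC1-E63R, not past the test. For HDAC1-Y48E it was then -0.39 ± 0.078 (SE, adjusted p = 9.66e-05), past it.

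H3f3b (chr11:116021912-116027962), which codes for the same protein, gave 1050.2, 1035 and 944 CPM in untreated and 981, 926 and 885 CPM in treated HDAC1-WT cells. It gave 706, 708 and 917 and 908, 966 and 912 CPM in HDAC1-E63R cells, and 914, 862 and 850.2 and 1127, 1149 and 1190.5 CPM in HDAC1-Y48E cells. Every treated HDAC1-Y48E library lay above every untreated one, and in HDAC1-WT cells the groups overlapped with a lower mean after OHT. For H3f3b the log2 fold change was -0.12 ± 0.098 (SE, adjusted p = 0.783) in HDAC1-WT, 0.26 ± 0.099 (SE, adjusted p = 0.0593) in HDAC1-E63R and 0.40 ± 0.099 (SE, adjusted p = 0.00226) in HDAC1-Y48E cells. In HDAC1-E63R cells it passed without the outlying library, at 0.39 ± 0.058 (SE, adjusted p = 6.48e-07). Leaving out 1 of 3 of the HDAC1-Y48E libraries (untreated 2, untreated 3 or treated 3) brought the adjusted p to 0.012 or 0.013 with the rise between 0.38 and 0.39. The OHT effect in HDAC1-Y48E cells differed from that in HDAC1-WT cells by 0.52 ± 0.14 (SE, adjusted p = 0.00954), a call that was lost without any 1 of the 12 libraries it uses (adjusted p between 0.0128 and 0.0299), while HDAC1-E63R differed by 0.38 ± 0.14 (SE, adjusted p = 0.120), or 0.51 ± 0.077 (SE, adjusted p = 4.22e-06) without the outlying library.

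As a share of the H3.3 pair per kb, H3f3b gave 72.3%, 72.4% and 71.3% in untreated HDAC1-WT libraries and 73.5%, 72.3% and 70.8% in treated ones. In HDAC1-E63R cells the shares were 65.7%, 66.0% and 59.1% and then 75.0%, 75.4% and 73.1%, and in HDAC1-Y48E cells 69.6%, 68.3% and 68.7% and then 79.8%, 80.8% and 81.5%. The share was higher in every treated library of both mutants, by 10.9 and 11.8 percentage points of the mean (exact permutation p = 0.1 each, the smallest possible, and 0.129 adjusted over 9 tests), and overlapped in HDAC1-WT cells (exact permutation p = 0.9). The difference in HDAC1-E63R cells was 8.61 points without the outlying library. The summed level of both genes spanned 1306 to 1383 CPM in untreated and 1464 to 1508 CPM in treated HDAC1-Y48E cells, and 1391 to 1525 and 1314 to 1396 CPM in HDAC1-WT cells. H3f3a has 22 processed copies whose counts came to 2.82% of its own, and H3f3b 2 copies with 0.846%.

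**Figure D2:**
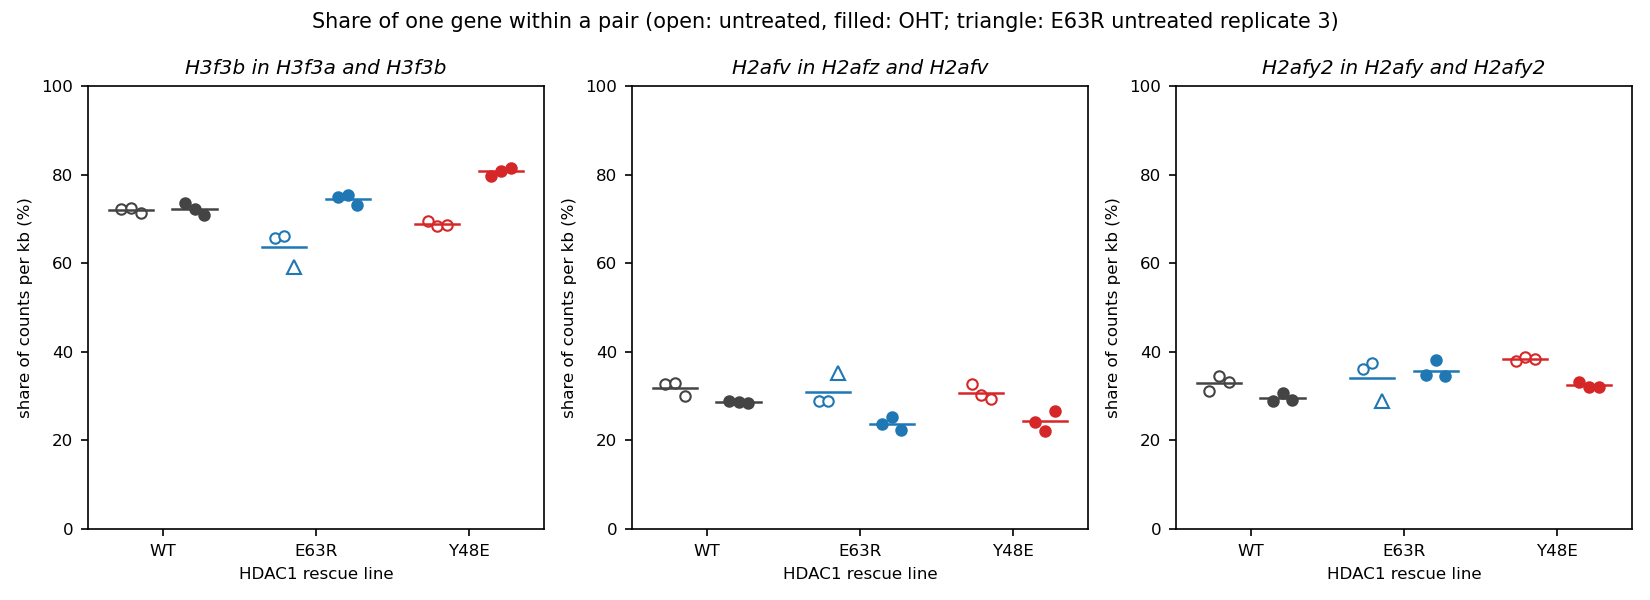
Share of one gene within each of 3 pairs, in percent of the pair's counts per kb of exon, in each library by rescue line (open: untreated, filled: OHT-treated, triangle: replicate 3 of untreated HDAC1-E63R, bars: means). The share of H3f3b lies higher after OHT in both mutants and not in HDAC1-WT cells, whereas that of H2afv lies lower after OHT in all 3 lines.

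Counted over the 10 members, none passed the test with OHT in HDAC1-WT cells, where 0.0585% of all tested genes did, none had an unadjusted p under 0.05 and DESeq2 called none. In HDAC1-E63R cells 2 passed, both lower (H2afy and H3f3a), where 14.3% of all genes did, 7.49% higher and 6.82% lower. In HDAC1-Y48E cells 4 passed, 1 higher (H3f3b) and 3 lower (H2afy, H2afy2 and H3f3a), where 30.9% of all genes did, 16.2% higher and 14.7% lower. Both counts lay near what the whole table gave. The median of the absolute log2 fold change was 0.12, 0.38 and 0.37 for the members in HDAC1-WT, HDAC1-E63R and HDAC1-Y48E cells, beside 0.19, 0.40 and 0.56 for all tested genes. Without the outlying library 7 members passed in HDAC1-E63R cells (4 higher and 3 lower) and 7 in HDAC1-Y48E cells (3 higher and 4 lower), with 18.5% and 41.1% of all genes, and none in HDAC1-WT cells, with 1.39%. Library totals in place of TMM factors moved the median of all genes from 0.029 to 0.23 in HDAC1-E63R and from 0.047 to 0.25 in HDAC1-Y48E cells, so that changes below about that size depend on the scaling. Scaled to library totals, the members past the test were 2 in HDAC1-E63R cells, both higher (H2afx at 0.65 and H3f3b at 0.47), and 4 in HDAC1-Y48E cells, 3 higher (H1fx at 0.83, H2afz at 0.52 and H3f3b at 0.61) and 1 lower (H2afy2 at -0.52). The split between higher and lower members therefore turned with the scaling, and H3f3b and H2afy2 in HDAC1-Y48E cells passed under TMM, size factors and library totals. With size factors H3f3a passed in neither mutant and H2afy in HDAC1-E63R cells alone.

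**Figure D3:**
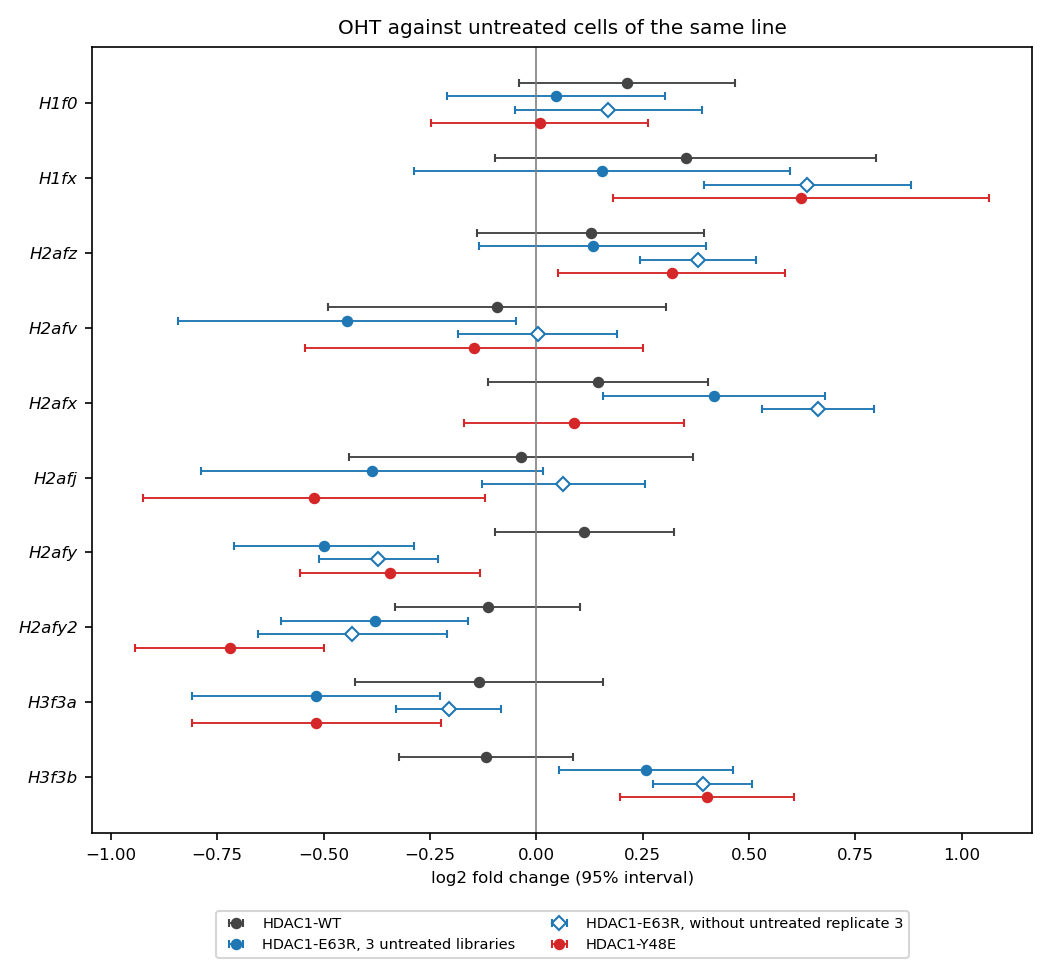
Log2 fold change of each gene with OHT against untreated cells of the same line, with 95% intervals, for HDAC1-WT (grey), HDAC1-E63R with and without its untreated replicate 3 (blue, filled and open) and HDAC1-Y48E (red). H2afy, H2afy2 and H3f3a lie below 0 and H3f3b above 0 in both mutants, and leaving out the library moves H1fx, H2afz and H2afx in HDAC1-E63R cells upward, with H1fx at 0.64.

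The test of the difference between lines asks whether OHT acted differently in a mutant than in HDAC1-WT cells. For HDAC1-Y48E it was passed by 2 members, H2afy2 and H3f3b, with 12.6% of all genes. For HDAC1-E63R it was passed by none, with 2.45% of all genes, though 2 members had an unadjusted p under 0.05 and DESeq2 called 1. Between the mutants none passed, with 1.95% of all genes, 1 had an unadjusted p under 0.05 and DESeq2 called none. Without the outlying library these counts were 5 (H2afj, H2afy, H2afy2, H3f3a and H3f3b), 3 (H2afx, H2afy and H3f3b) and 3 (H2afj, H2afx and H3f3a), with 23.1%, 6.53% and 7.45% of all genes. The comparisons share the HDAC1-WT libraries, or those of a mutant, and are not independent.

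The lines already differed before OHT, when each held its endogenous genes. Against untreated HDAC1-WT cells, untreated HDAC1-E63R cells held less H2afx, at log2 -1.02 ± 0.13 (SE, adjusted p = 2.95e-06), which was a change over 2-fold, less H3f3b, at -0.38 ± 0.099 (SE, adjusted p = 0.00608), and more H2afz, at 0.48 ± 0.13 (SE, adjusted p = 0.00708). These 3 were the members past the test there, with 16.9% of all genes. These values became -1.26 ± 0.066 (SE, adjusted p = 7.52e-20) for H2afx, -0.51 ± 0.058 (SE, adjusted p = 1.30e-09) for H3f3b and 0.24 ± 0.068 (SE, adjusted p = 0.00491) for H2afz without the outlying library. H1f0 then passed as well, at -0.51 ± 0.11 (SE, adjusted p = 2.64e-04), which made 4 members with 20.5% of all genes. In untreated HDAC1-Y48E cells 1 member passed, H2afj at 0.74 ± 0.19 (SE, adjusted p = 0.00853), with 12.2% of all genes, and 6 members had an unadjusted p under 0.05. The outlying library enters that comparison through the shared spread, and 7 passed without it, with 21.4% of all genes. H1fx, H2afz, H2afv and H2afj were higher, and H2afx, H2afy and H3f3b lower.

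After OHT, 4 members passed between HDAC1-E63R and HDAC1-WT cells, with 19.3% of all genes: H2afz was higher at 0.49 ± 0.13 (SE, adjusted p = 0.00588), and H1f0 (-0.55 ± 0.12 (SE, adjusted p = 0.00150)), H2afx (-0.75 ± 0.13 (SE, adjusted p = 8.86e-05)) and H2afy (-0.63 ± 0.10 (SE, adjusted p = 5.76e-05)) were lower. Between treated HDAC1-Y48E and HDAC1-WT cells 4 also passed, with 31.8% of all genes: H1fx (0.79 ± 0.21 (SE, adjusted p = 0.00471)) and H2afz (0.59 ± 0.13 (SE, adjusted p = 8.13e-04)) were higher, and H2afy (-0.79 ± 0.10 (SE, adjusted p = 1.62e-06)) and H2afy2 (-0.60 ± 0.11 (SE, adjusted p = 9.32e-05)) lower. These comparisons do not use the outlying library, but its spread enters the shared model, and without it 6 and 9 members passed, with 29.5% and 41.8% of all genes. H2afz and H2afy thus passed against HDAC1-WT in both treated mutants. With all libraries neither H3.3 gene passed in treated HDAC1-Y48E cells, with H3f3b at 0.31 ± 0.098 (SE, adjusted p = 0.0132) and H3f3a at -0.37 ± 0.14 (SE, adjusted p = 0.0359). Both passed there without the outlying library, at 0.31 ± 0.051 (SE, adjusted p = 1.41e-06) and -0.38 ± 0.055 (SE, adjusted p = 1.68e-07). In treated HDAC1-E63R cells H3f3b was at -0.0031 ± 0.098 (SE, adjusted p = 0.988) and H3f3a at -0.17 ± 0.14 (SE, adjusted p = 0.405).

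**Figure D4:**
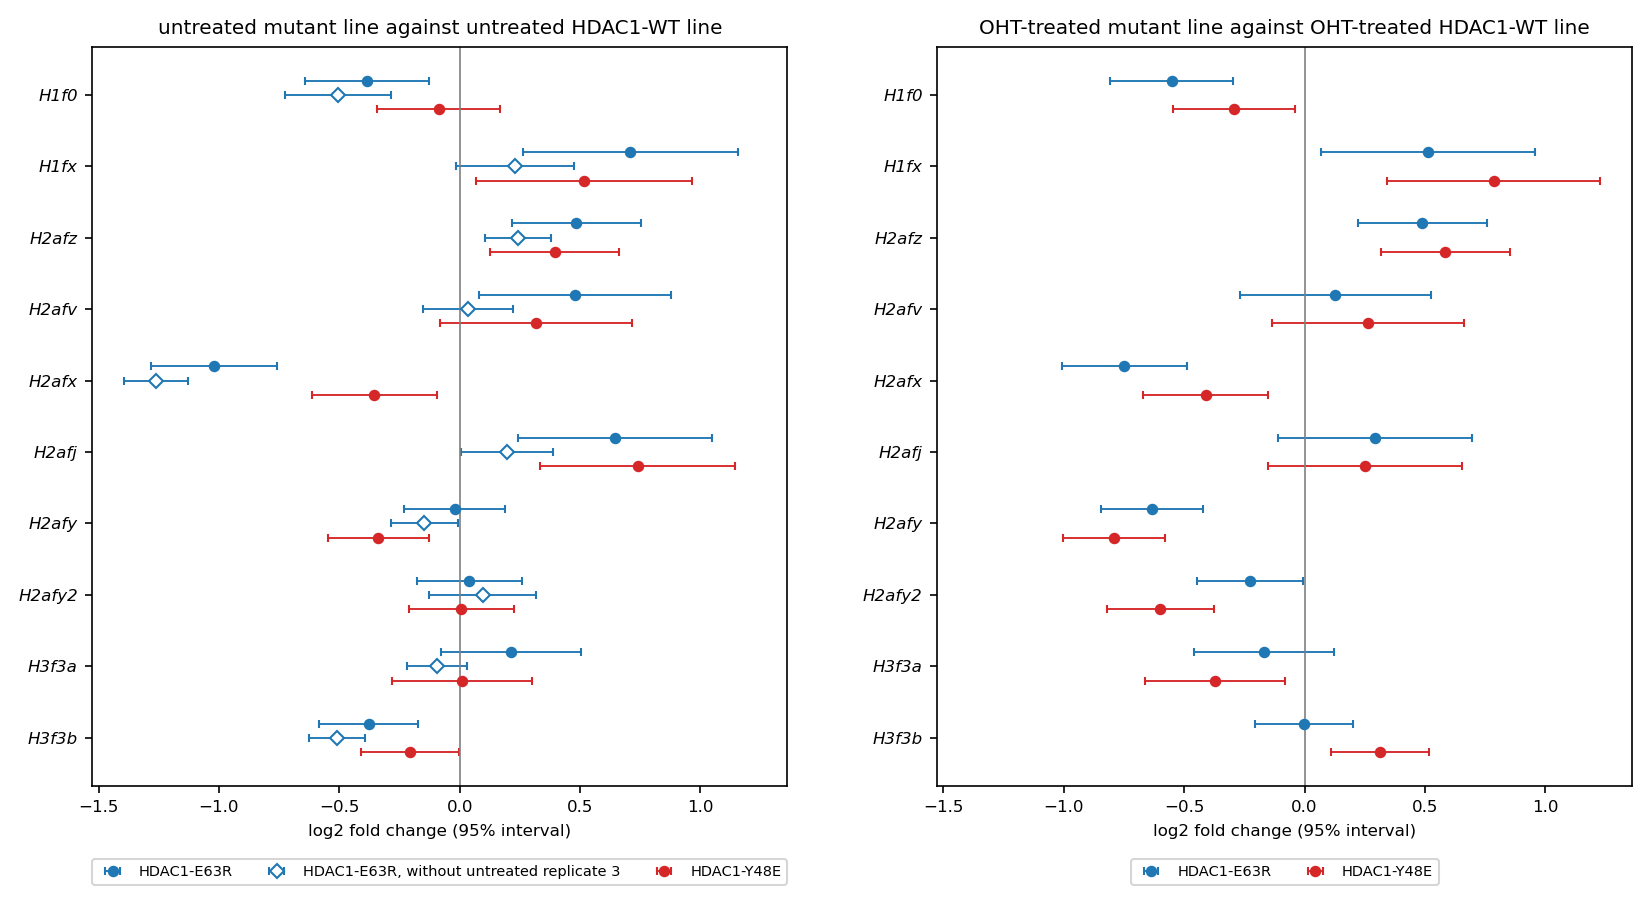
Log2 fold change of each gene in the mutant lines against the HDAC1-WT line, with 95% intervals, for untreated cells (left, with HDAC1-E63R also shown without its replicate 3 as open diamonds) and OHT-treated cells (right). H2afx lies below 0 in HDAC1-E63R cells in both panels, while H2afy lies near or below 0 before OHT and at -0.63 and -0.79 after it.

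Proteins that place and remove these variants were followed with other histone chaperones as a list of 29 genes, all of them tested. The others include those of Chaf1a, Chaf1b, Nasp, Set, Ssrp1 and Tonsl, which are not particular to these variants. The whole list is called deposition and removal factors below. HIRA with UBN1, UBN2, CABIN1 and ASF1A deposits H3.3 at genes, DAXX with ATRX deposits it at repeats, the SRCAP and p400-TIP60 complexes, which share RUVBL1, RUVBL2, VPS72 and DMAP1 among their subunits, exchange H2A for H2A.Z, and ANP32E and INO80 act in its removal. None passed with OHT in HDAC1-WT cells, with a median of the log2 fold change of -0.033. In HDAC1-E63R cells 3 were lower and none higher (median -0.15), where 6.82% of all genes were lower, and in HDAC1-Y48E cells 11 were lower and none higher (median -0.32, against 0.047 over all genes). In HDAC1-Y48E cells 14.7% of all genes were lower. Leaving out the outlying library gave 6 lower and 1 higher in HDAC1-E63R and 15 lower and 2 higher in HDAC1-Y48E cells, while scaling to library totals only left 5 past the test in HDAC1-Y48E cells. Without that library 9.63% of all genes were lower in HDAC1-E63R and 19.9% in HDAC1-Y48E cells.

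Ruvbl2, coding for an AAA+ ATPase of those complexes, was the DEG of the list. It spanned 286 to 325 CPM in untreated and 273 to 285 CPM in treated HDAC1-WT cells, 325 to 416 and 239 to 259 CPM in HDAC1-E63R cells, and 262 to 283 and 108 to 113 CPM in HDAC1-Y48E cells. It fell in both mutants, by log2 -0.54 ± 0.096 (SE, adjusted p = 2.72e-04) in HDAC1-E63R and -1.28 ± 0.098 (SE, adjusted p = 9.43e-10) in HDAC1-Y48E cells. Its partner Ruvbl1 was at -0.28 ± 0.13 (SE, adjusted p = 0.125) and -0.32 ± 0.13 (SE, adjusted p = 0.0505), which did not pass. Vps72, whose protein binds the H2A.Z-H2B dimer, was at -0.61 ± 0.16 (SE, adjusted p = 0.00631) and -0.87 ± 0.16 (SE, adjusted p = 1.15e-04), and Daxx, the H3.3 chaperone, at -0.65 ± 0.14 (SE, adjusted p = 0.00169) and -0.89 ± 0.14 (SE, adjusted p = 3.43e-05). Ruvbl2, Vps72 and Daxx passed in both mutants. The HDAC1-E63R values without the outlying library were -0.44 ± 0.069 (SE, adjusted p = 2.71e-06) for Ruvbl2, -0.47 ± 0.14 (SE, adjusted p = 0.0108) for Vps72, then short of the limit, and -0.62 ± 0.16 (SE, adjusted p = 0.00217) for Daxx. In that fit Ruvbl1 passed in HDAC1-Y48E cells at -0.33 ± 0.087 (SE, adjusted p = 0.00153). The other 8 that passed in HDAC1-Y48E cells were Tonsl, Set, Ino80, Chaf1b, Nasp, Anp32e, Chaf1a and Ssrp1, between -0.86 and -0.32. Hira was at 0.23 ± 0.23 (SE, adjusted p = 0.433) and Atrx at 0.33 ± 0.16 (SE, adjusted p = 0.0972) in HDAC1-Y48E cells.

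Of 7 genes for the kinases of H2A.X and the readers of its phosphorylated form, 1 passed, in HDAC1-Y48E cells, where 30.9% of all genes did. Mdc1, coding for the protein that binds phosphorylated H2A.X directly, spanned 303 to 329.7 CPM in untreated and 146 to 156 CPM in treated HDAC1-Y48E cells, and 207 to 237 and 187 to 190.3 CPM in HDAC1-WT cells. The groups did not overlap in either line, and the log2 fold change was -1.04 ± 0.15 (SE, adjusted p = 6.73e-06) in HDAC1-Y48E cells. In HDAC1-E63R cells it spanned 166 to 307 CPM, the lowest in the outlying library, and then 215 to 238 CPM, at -0.18 ± 0.15 (SE, adjusted p = 0.395). Without that library the HDAC1-E63R groups did not overlap either, and Mdc1 passed there at -0.42 ± 0.071 (SE, adjusted p = 8.24e-06). In that fit 1 gene of the list was lower in HDAC1-E63R and 2 were lower in HDAC1-Y48E cells (Mdc1 and Rnf168), where 9.63% and 19.9% of all genes were lower. The OHT effect on Mdc1 in HDAC1-Y48E cells differed from that in HDAC1-E63R cells by -0.63 ± 0.096 (SE, adjusted p = 4.92e-06), HDAC1-Y48E minus HDAC1-E63R, without the library, and by -0.86 ± 0.21 (SE, adjusted p = 0.0159), short of the limit, with it. H2afx itself was at 0.089 in the same cells.

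**Figure D5:**
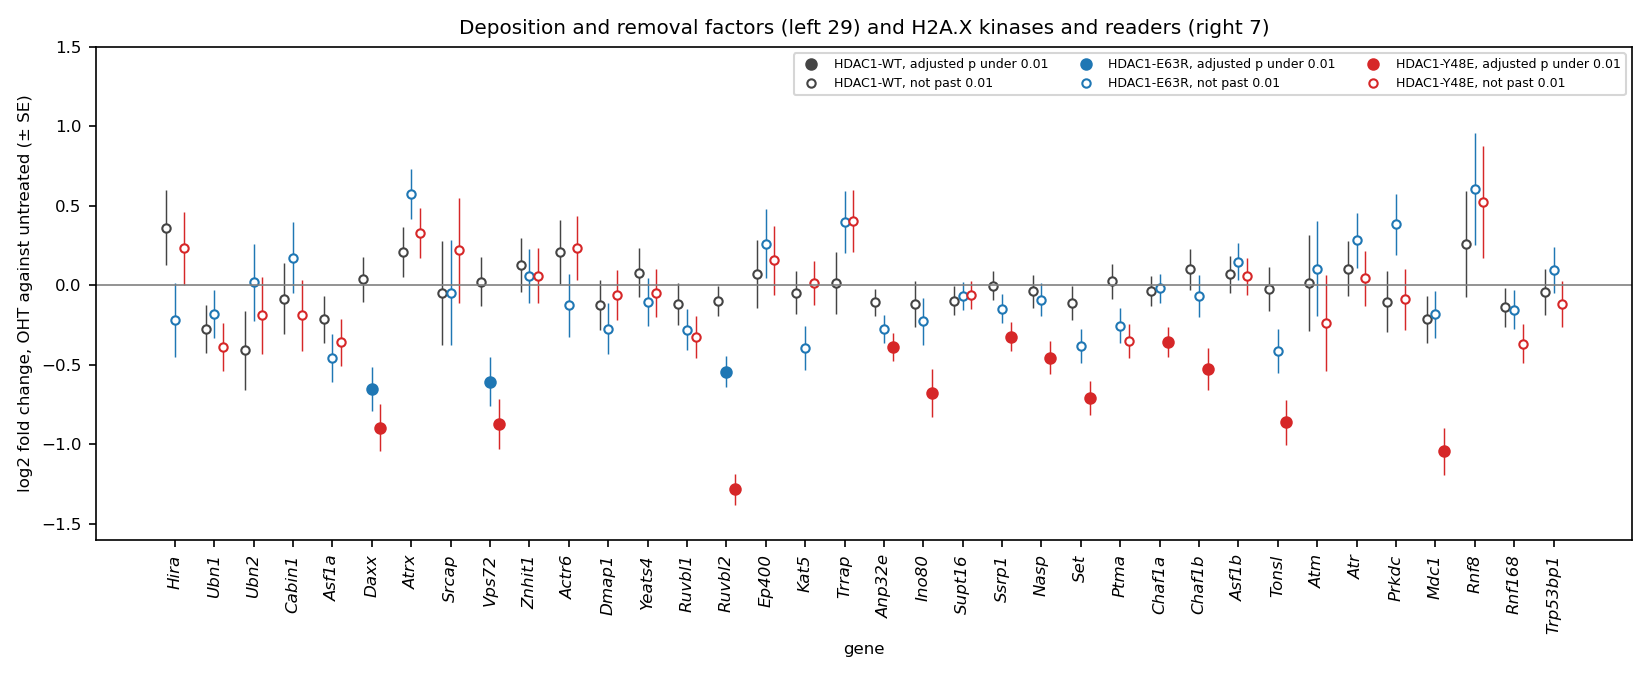
Log2 fold change with OHT (± SE) of 29 genes for factors that deposit or remove variant histones and for other histone chaperones, and of 7 genes for H2A.X kinases and readers, in HDAC1-WT (grey), HDAC1-E63R (blue) and HDAC1-Y48E (red) cells, with filled points where the adjusted p was under 0.01. The filled points all lie below 0, and Ruvbl2 in HDAC1-Y48E cells lies lowest at -1.28.

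The 5 clustered linker histone genes of the Hist1 cluster, whose main transcripts end without a poly(A) tail, were low, at 26.9 to 32.3 CPM summed in untreated HDAC1-WT cells. Of 9 genes for other variants only Cenpa, the centromeric H3 variant, was high enough to test. With all libraries none of these passed with OHT, where 0.0585%, 14.3% and 30.9% of all genes did in HDAC1-WT, HDAC1-E63R and HDAC1-Y48E cells. Without the outlying library 1 clustered gene was higher in HDAC1-E63R cells, where 8.85% of all genes were higher. Cenpa was then lower in HDAC1-Y48E cells, at -0.35, where 19.9% of all genes were lower. Of the rest, 4 testis variants (Hils1, H2afb1, H2afb2 and H2afb3) were at or under 3 counts in every library, 2 of them at 0 throughout (H2afb1 and H2afb2), and the others reached at most 10 counts.

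Levels of other gene groups moved in the same libraries, where 14.3% of all genes passed in HDAC1-E63R and 30.9% in HDAC1-Y48E cells. The summed level of 8 ESC markers spanned 5978 to 6068 CPM in untreated and 2657 to 2798 CPM in treated HDAC1-Y48E cells, with 7 of 8 past the test and lower, and 7829 to 8017 and 8252 to 9097 CPM in HDAC1-WT cells. The ranges for HDAC1-E63R cells were 5355 to 8668 and 4668 to 5000.3 CPM. The 12 proliferation markers spanned 5078 to 5138 and 3264 to 3456 CPM in HDAC1-Y48E cells, with 10 of 12 lower. In HDAC1-E63R cells 3 ESC markers were lower and 1 higher, and the proliferation markers spanned 4998 to 5388 and 4516 to 4600.3 CPM, with 2 of 12 lower. Trophoblast markers (7 genes) spanned 55.4 to 70.3 and 506 to 558 CPM in HDAC1-Y48E cells and 56.6 to 100.1 and 174 to 185 CPM in HDAC1-E63R cells, with 4 higher in each. The HDAC1-WT ranges were 70.7 to 79.2 and 70.1 to 98.4 CPM. Fibroblast markers (7 genes, 3 of them tested) spanned 23.0 to 27.2 and 81.7 to 94.3 CPM in HDAC1-Y48E cells and 12.9 to 18.9 and 48.6 to 56.5 CPM in HDAC1-E63R cells, with 2 higher in each. The HDAC1-WT ranges were 23.4 to 25.2 and 35.9 to 41.9 CPM. Primitive endoderm markers (6 genes, 5 of them tested) spanned 15.4 to 24.3 and 41.5 to 49.2 CPM in HDAC1-Y48E cells and 12.5 to 19.99 and 19.0 to 22.7 CPM in HDAC1-E63R cells, with 1 higher in each. The HDAC1-WT ranges were 39.2 to 41.5 and 34.7 to 39.0 CPM. No gene of these 5 lists passed in HDAC1-WT cells with all libraries, and 4 ESC markers and 1 fibroblast marker were higher there without the outlying one. In HDAC1-E63R cells, without it, 2 ESC markers were higher and 3 lower, and 1 proliferation marker was higher and 5 lower. Among the others 4 trophoblast, 2 fibroblast and 0 primitive endoderm markers were then higher, with 18.5% of all genes past the test. The part of these shifts in the changes of the variant genes was not tested, and in bulk RNA fewer cells of a type and less RNA per cell cannot be told apart.

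Transcripts of several members overlap genes on the opposite strand within their exons. The shared bases were 17.5% of H1fx (Gm5577), 18.2% of H3f3a (Gm17275), 10.7% of H2afy2 (Aifm2), 10.2% of H2afx (Gm44335), 7.7% of H2afj (Gm44364) and 7.36% of H2afy (Gm47071). Where the counting did not use strand, reads over these bases cannot be told apart from those of the partner.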

How the data were processed

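RNA was sequenced from 18 samples, 3 in each of 6 groups. The deposited values are raw counts per gene symbol, which the authors made by mapping to mm10. Per the labels they used HISAT2 2.1.0, SAMtools 1.9 and HTSeq, on libraries made with the NEB Next Ultra RNA kit, and the annotation and strand setting are not given in the sources used here. Counts on genes were 9019615 to 11454638 per library, and 5 entries that name no gene, which held 59.4% to 61.2% of the total of each file, were left out. A floor of 3 counts lay between 0.262 and 0.333 CPM, which covers counting error only.

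Genes were filtered with filterByExpr, which left 18791, and tested in 1 quasi-likelihood model of all 18 libraries (edgeR 4.0.16, R 4.3.3) with TMM factors. P-values were adjusted by Benjamini-Hochberg over all tested genes. Passing meant an adjusted p under 0.01, and a DEG also changed over 2-fold, the limits the study uses. SEs were derived from the fold change and F statistic. Effects in different lines were compared as interactions. Exon lengths came from GENCODE M21 and promoters from RefSeq, of which 9 of 10 members matched. Shares within pairs were tested by exact permutation (scipy 1.17.1, two-sided).

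Alternatives were other scalings, no filter, DESeq2 1.42.0, a replicate block, only the libraries compared, summed copies, a limit of 0.05 and each library left out. The setting without replicate 3 of untreated HDAC1-E63R for comparisons that do not use it was chosen after seeing the data. The members and lists were chosen with earlier results of these data known. All members were named, and of other lists the DEGs whose groups did not overlap, besides genes named after their values were seen (Hdac2, Rnf168, Daxx, Vps72, Ruvbl1, Hira, Atrx, Cenpa, Gm44335 and the other factors listed). The fits were tested on simulated data.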

Additional observations from a re-analysis of the deposited data

Results flagged for a closer look

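The OHT effect differed between lines, by the test of the difference itself, for 2 members and for the 2 DEGs of the related lists. In all, 5 deposition and removal factors and 1 gene of the H2A.X list passed that test between HDAC1-Y48E and HDAC1-WT cells, where 12.6% of all genes did. For H2afy2 the effect in HDAC1-Y48E minus that in HDAC1-WT cells was -0.61 ± 0.15 (SE, adjusted p = 0.00530) on the log2 scale, and for H3f3b it was 0.52 ± 0.14 (SE, adjusted p = 0.00954) (edgeR, n = 3 libraries a group). The call for H2afy2 was lost without any 1 of 8 of its 12 libraries and that for H3f3b without any 1 of all 12. Ruvbl2 differed by -1.18 between HDAC1-Y48E and HDAC1-WT cells and by -0.74 between HDAC1-Y48E and HDAC1-E63R cells (-0.85 without replicate 3 of untreated HDAC1-E63R), and Mdc1 differed by -0.83 between HDAC1-Y48E and HDAC1-WT cells. Groups of 3 libraries are too small for a test of single outlying values.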

How the results depend on the processing

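The counts of members past the test moved with the processing, from 0 for OHT in HDAC1-WT, 2 for OHT in HDAC1-E63R, 4 for OHT in HDAC1-Y48E, 0 for HDAC1-E63R minus HDAC1-WT, 2 for HDAC1-Y48E minus HDAC1-WT, 0 for HDAC1-Y48E minus HDAC1-E63R, 3 for untreated HDAC1-E63R against HDAC1-WT, 1 for untreated HDAC1-Y48E against HDAC1-WT, 4 for treated HDAC1-E63R against HDAC1-WT and 4 for treated HDAC1-Y48E against HDAC1-WT. Counts that moved by over 1.5 times are given first. The share of all genes past the test is not set beside these counts and can move with a setting too. Without the outlying library it went from 14.3% to 18.5% for OHT in HDAC1-E63R and from 30.9% to 41.1% in HDAC1-Y48E cells. A moved count alone therefore does not separate the members from the whole table. With a limit of 0.05, the count of members was 4 for OHT in HDAC1-E63R, 7 for OHT in HDAC1-Y48E, 1 for HDAC1-E63R minus HDAC1-WT, 6 for untreated HDAC1-E63R against HDAC1-WT, 4 for untreated HDAC1-Y48E against HDAC1-WT and 7 for treated HDAC1-Y48E against HDAC1-WT. Without the filter, the count of members was 4 for OHT in HDAC1-E63R, 1 for HDAC1-E63R minus HDAC1-WT, 1 for HDAC1-Y48E minus HDAC1-WT, 6 for untreated HDAC1-E63R against HDAC1-WT and 3 for untreated HDAC1-Y48E against HDAC1-WT. With only the libraries compared in the fit, the count of members was 0 for OHT in HDAC1-E63R, 7 for OHT in HDAC1-Y48E, 5 for HDAC1-Y48E minus HDAC1-WT, 0 for untreated HDAC1-E63R against HDAC1-WT, 7 for untreated HDAC1-Y48E against HDAC1-WT and 9 for treated HDAC1-Y48E against HDAC1-WT. With the replicate number as a block, the count of members was 1 for OHT in HDAC1-E63R, 1 for HDAC1-E63R minus HDAC1-WT, 1 for HDAC1-Y48E minus HDAC1-WT and 0 for untreated HDAC1-Y48E against HDAC1-WT. With library totals only, the count of members was 1 for HDAC1-E63R minus HDAC1-WT, 1 for HDAC1-Y48E minus HDAC1-WT and 3 for untreated HDAC1-Y48E against HDAC1-WT. With size factors, the count of members was 2 for OHT in HDAC1-Y48E. With DESeq2, the count of members was 1 for HDAC1-E63R minus HDAC1-WT, 5 for untreated HDAC1-E63R against HDAC1-WT and 2 for untreated HDAC1-Y48E against HDAC1-WT. Smaller moves were to 3 with DESeq2 for OHT in HDAC1-E63R (H2afy2 gained), to 5 without the filter for OHT in HDAC1-Y48E (H1fx and H2afj gained, H2afy lost), to 3 with the limit of 0.05 for HDAC1-Y48E minus HDAC1-WT, to 2 with size factors and 4 with library totals for untreated HDAC1-E63R, to 5 without the filter and 6 with only the libraries compared for treated HDAC1-E63R, and to 5 with size factors, library totals or DESeq2 and 6 without the filter for treated HDAC1-Y48E. Leaving out 1 library at a time gave 1 to 7 for OHT in HDAC1-E63R, 1 to 7 for OHT in HDAC1-Y48E, 0 to 3 for HDAC1-E63R minus HDAC1-WT, 0 to 5 for HDAC1-Y48E minus HDAC1-WT, 0 to 3 for HDAC1-Y48E minus HDAC1-E63R, 1 to 5 for untreated HDAC1-E63R against HDAC1-WT, 0 to 7 for untreated HDAC1-Y48E against HDAC1-WT, 2 to 6 for treated HDAC1-E63R against HDAC1-WT and 3 to 9 for treated HDAC1-Y48E against HDAC1-WT, and the highest count of each came without replicate 3 of untreated HDAC1-E63R, except for untreated HDAC1-E63R against HDAC1-WT, where it came without replicate 2. With a limit of 0.05, the lists gave 9 for OHT in HDAC1-E63R (deposition and removal factors), 1 for OHT in HDAC1-E63R (clustered linker genes), 2 for OHT in HDAC1-Y48E (H2A.X kinases and readers) and 1 for OHT in HDAC1-Y48E (other variants). Without the filter, the lists gave 5 for OHT in HDAC1-E63R (deposition and removal factors). With only the libraries compared in the fit, the lists gave 0 for OHT in HDAC1-E63R (deposition and removal factors), 2 for OHT in HDAC1-Y48E (H2A.X kinases and readers), 1 for OHT in HDAC1-Y48E (clustered linker genes) and 1 for OHT in HDAC1-Y48E (other variants). With library totals only, the lists gave 1 for OHT in HDAC1-E63R (clustered linker genes) and 5 for OHT in HDAC1-Y48E (deposition and removal factors). With DESeq2, the lists gave 6 for OHT in HDAC1-E63R (deposition and removal factors). For the deposition and removal factors smaller moves were to 4 with size factors and 2 with library totals in HDAC1-E63R cells, and to 10 with size factors, 16 with only the libraries compared and 13 with the limit of 0.05 in HDAC1-Y48E cells. Leaving out 1 library at a time gave 1 to 7 for OHT in HDAC1-E63R (deposition and removal factors), 0 to 1 for OHT in HDAC1-E63R (H2A.X kinases and readers), 0 to 1 for OHT in HDAC1-E63R (clustered linker genes), 8 to 17 for OHT in HDAC1-Y48E (deposition and removal factors), 1 to 2 for OHT in HDAC1-Y48E (H2A.X kinases and readers) and 0 to 1 for OHT in HDAC1-Y48E (other variants).

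Over all settings the members' values for single comparisons stayed on their side of 0 and of the limit in 899 cases, lost the call in 52, gained one in 46, and turned sign in 53, and none of the last passed the test before or after. With only the libraries compared in the fit, the sign turned for H1f0 (OHT in HDAC1-Y48E) at -0.0072, H2afz (HDAC1-E63R minus HDAC1-WT) at -0.000079 and H3f3a (HDAC1-Y48E minus HDAC1-E63R) at 0.00075. With library totals only, the sign turned for H2afj (OHT in HDAC1-WT) at 0.012, H2afv (OHT in HDAC1-Y48E) at 0.059, H1f0 (HDAC1-E63R minus HDAC1-WT) at 0.00049, H1fx (HDAC1-E63R minus HDAC1-WT) at 0.0015, H2afv (HDAC1-Y48E minus HDAC1-WT) at 0.10 and H2afx (HDAC1-Y48E minus HDAC1-WT) at 0.10. With size factors, the sign turned for H2afz (HDAC1-E63R minus HDAC1-WT) at -0.0038, H1f0 (HDAC1-Y48E minus HDAC1-E63R) at 0.0060 and H3f3a (HDAC1-Y48E minus HDAC1-E63R) at 0.046. With DESeq2, the sign turned for H2afz (HDAC1-E63R minus HDAC1-WT) at -0.0032, H1f0 (HDAC1-Y48E minus HDAC1-E63R) at 0.0058 and H3f3a (HDAC1-Y48E minus HDAC1-E63R) at 0.046. With 1 library left out at a time, the values that crossed 0 spanned, on the log2 scale unless points are named, H2afj (OHT in HDAC1-WT) -0.098 to 0.061, H1f0 (OHT in HDAC1-E63R) -0.033 to 0.17, H1fx (OHT in HDAC1-E63R) -0.070 to 0.64, H2afv (OHT in HDAC1-E63R) -0.64 to 0.0027, H2afj (OHT in HDAC1-E63R) -0.58 to 0.063, H1f0 (OHT in HDAC1-Y48E) -0.068 to 0.15, H1fx (HDAC1-E63R minus HDAC1-WT) -0.42 to 0.29, H2afz (HDAC1-E63R minus HDAC1-WT) -0.12 to 0.25, H2afv (HDAC1-E63R minus HDAC1-WT) -0.55 to 0.095, H2afj (HDAC1-E63R minus HDAC1-WT) -0.54 to 0.099, H2afv (HDAC1-Y48E minus HDAC1-WT) -0.14 to 0.018, H1f0 (HDAC1-Y48E minus HDAC1-E63R) -0.17 to 0.10, H1fx (HDAC1-Y48E minus HDAC1-E63R) -0.019 to 0.69, H2afz (HDAC1-Y48E minus HDAC1-E63R) -0.066 to 0.31, H2afv (HDAC1-Y48E minus HDAC1-E63R) -0.15 to 0.49, H2afj (HDAC1-Y48E minus HDAC1-E63R) -0.59 to 0.053, H3f3a (HDAC1-Y48E minus HDAC1-E63R) -0.32 to 0.13, the share of H3f3b (HDAC1-WT) -0.436 to 0.910 points and the share of H2afy2 (HDAC1-E63R) -1.002 to 3.34 points.

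Adding processed copies to their parent genes changed no count of calls. The replicate numbers do not pair the samples: correlations of same-numbered deviations lay between -0.019 and 0.044, and the block changed the calls only as given above. Depth was not the limit for the members, which all lay above the floor, and 3 libraries a group, 1 of them outlying, set the precision. One line stands for each mutant, so a difference between lines cannot be told apart from the history of those lines. The causes of these shifts were not tested.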
